A study of Mus musculus with 9 samples.

Results

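The libraries described are the 3 labelled NPC and the 3 labelled WT, 6 of the 9 in the series, chosen by the genotype code in their titles. Poly(A) RNA was sequenced from mouse bone marrow cells sorted for c-Kit, the receptor that marks blood stem cells and progenitors. The study set CMML mice, with or without a conditional knockout of Piezo1, against control mice. The labels do not spell out the codes. Reading NPC as CMML with the Piezo1 knockout and WT as control follows the letters and order of the codes, so the groups keep their codes here. On that reading, disease and knockout differ together between NPC and WT, and their effects cannot be told apart in this comparison. The labels give no strain, age, sex, Cre driver or leukaemia allele, and do not state whether each library is a different animal. The p-values then reflect only how these libraries vary, possibly for technical reasons.

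Chronic myelomonocytic leukaemia (CMML) is a clonal blood disease in which stem and progenitor cells overproduce monocytes and granulocytes. Piezo1 is a cation channel opened by stretch of the cell membrane. Interferon signalling, leukocyte integrins, glycolysis and mitochondrial respiration are all known to shift as progenitors divide and mature.

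The table analysed here held 99 genes, and 61 of them had at least 1 FPKM (fragments scaled to transcript length and to the mapped total) in at least 3 of the 6 libraries and were tested. The depth implied by the ratio of count to FPKM ran from 80341629 to 88424059 counts in NPC and from 76613082 to 84833060 counts in WT. Pearson correlations of log2(FPKM + 1) over these genes, which do not count as independent replicates, were 0.998 to 0.999 within a group and 0.971 to 0.980 between NPC and WT. NPC libraries were more spread than WT libraries: the median coefficient of variation was 5.29% in NPC and 2.81% in WT, and it was larger in NPC for 41 of the 61 genes. Kit, Cd34 and the other listed stem and progenitor markers were not analysed here, nor was Piezo1, so neither the sort nor the knockout was checked.

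NPC cells differed from WT cells in most of the tested genes, mostly by small amounts. Of the 61 genes, 39 passed the threshold (63.9%), of which 20 rose (32.8%) and 19 fell (31.1%), by edgeR's quasi-likelihood test with Benjamini-Hochberg adjustment and a threshold of 0.05. Before adjustment 39 had p under 0.05. The counts of each gene list below stand against these shares of 32.8% higher and 31.1% lower. The rises were larger than the falls, with a median size of 0.32 on the log2 scale for genes that rose and 0.18 for genes that fell. Changes above 1.5-fold numbered 5 among the rises, namely Mx1, Tamalin, Haao, Gm2a and Lck, and 3 among the falls, which included Scml2 and Cav2. The median log2 fold change of all 61 genes was -0.04. The libraries of both groups did not overlap for 37 genes (60.7%), 17 with NPC above WT (27.9%) and 20 with NPC below WT (32.8%). The count of 19 lower genes depended on single libraries, since it was 12 without NPC replicate 2 and 24 without NPC replicate 1. In bulk RNA, a changed share of cells of a type and a changed level per cell cannot be told apart.

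**Figure D1:**
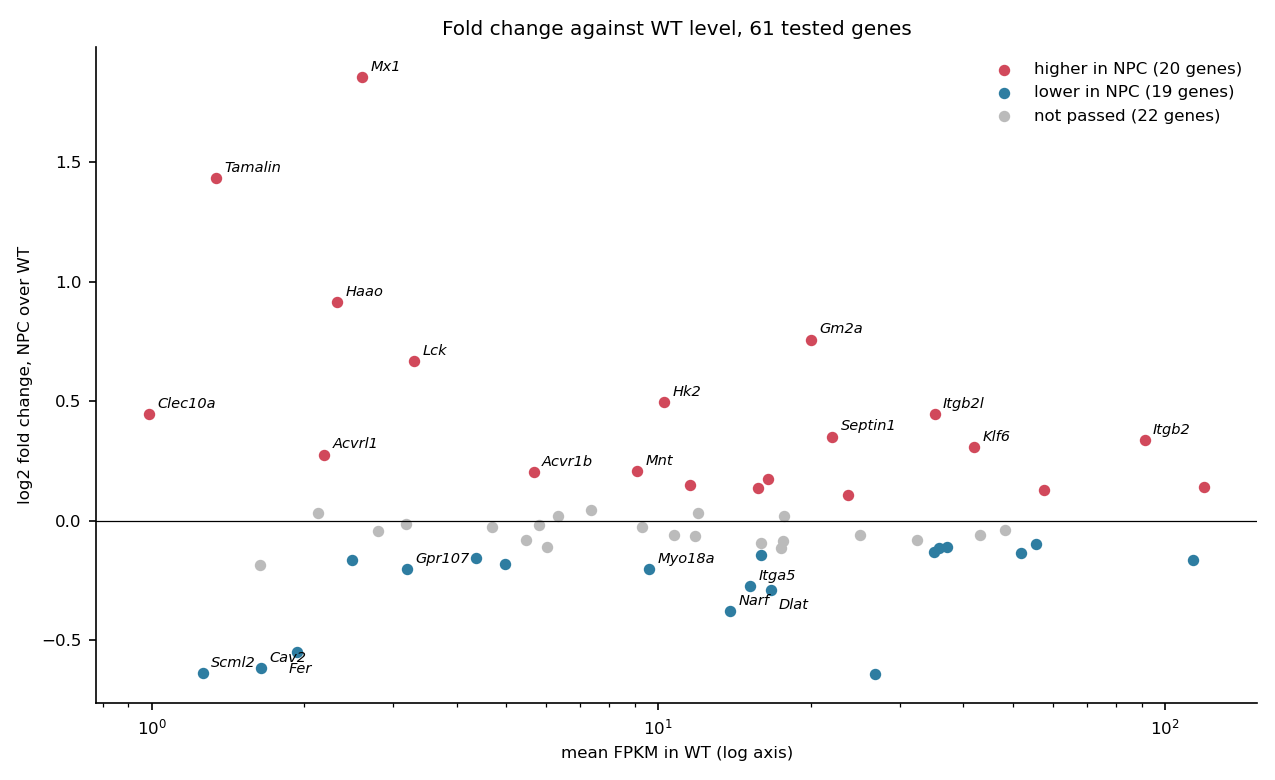
Log2 fold change of NPC over WT (vertical axis) against mean FPKM in WT (horizontal log axis) for the 61 tested genes, coloured by the edgeR call. Mx1, at 1.86, and Tamalin, at 1.43, stand above the other genes, and both lie under 5 FPKM in WT.

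Precision followed the level of the gene. The 18 genes under 5 FPKM in WT had a median standard error of 0.09 on the log2 scale, and 6 of them rose and 7 fell. The 25 genes from 5 to 20 FPKM in WT had a median standard error of 0.05, with 7 higher and 5 lower. The 18 genes at 20 FPKM or more in WT had a median standard error of 0.04, with 7 higher and 7 lower. The median size of the log2 fold change was 0.24 in the lowest class, 0.11 in the middle class and 0.13 in the highest class.

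Among interferon-inducible genes, Mx1 rose while the other 2 in the table did not pass. Mx1 encodes an interferon-induced dynamin-like GTPase with antiviral activity, and common laboratory strains carry a defective allele of it. It had 9.40, 9.70 and 9.27 FPKM in NPC replicates 1 to 3, against 2.62, 2.61 and 2.58 FPKM in WT replicates 1 to 3. Every NPC library thus stood far above every WT library. It rose 3.62-fold, by 1.86 ± 0.08 on the log2 scale (SE; edgeR adjusted p = 4.50e-58), with a 95% confidence interval of 1.71 to 2.01. The test shares information on spread across genes, so p-values this small do not rest on the 6 libraries of 1 gene alone. Over the alternatives the adjusted p of Mx1 ran from 2.45e-162 (DESeq2) to 6.80e-09 (edgeR without NPC replicate 2). Slfn4, a Schlafen family gene of myeloid cells, had 43.0, 42.8 and 38.4 FPKM in NPC, against 42.9, 43.7 and 42.9 FPKM in WT. The groups overlapped, and its log2 fold change was -0.06 (95% confidence interval -0.14 to 0.02). Trim25, a ubiquitin ligase of the RIG-I antiviral pathway, had 25.4, 23.7 and 22.9 FPKM in NPC, against 24.8, 24.3 and 25.8 FPKM in WT, and did not pass either, though without NPC replicate 1 it passed as lower (edgeR adjusted p = 0.0372). The list thus had 1 of 3 tested members higher and 0 lower, with a median log2 fold change of -0.06. Mx2 closely resembles Mx1, and several Schlafen genes resemble Slfn4. Reads shared between such relatives may have been split or dropped, so both levels are uncertain to that extent.

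Both lysosomal genes of the table were higher in NPC. Gm2a, the activator protein that presents GM2 ganglioside to hexosaminidase, had 33.5, 33.4 and 34.4 FPKM in NPC, against 19.4, 20.1 and 20.4 FPKM in WT. The lowest NPC library was 63.4% above the highest WT library, and the log2 fold change was 0.76 ± 0.04 (SE; edgeR adjusted p = 1.53e-37). Scpep1, a serine carboxypeptidase-like gene, had 13.2, 11.9 and 13.5 FPKM in NPC, against 11.9, 11.4 and 11.4 FPKM in WT. Its groups touched, since NPC replicate 2 lay just under WT replicate 1. The log2 fold change of Scpep1, 0.15 ± 0.07 (SE; edgeR adjusted p = 0.0386), did not pass without NPC replicate 1, NPC replicate 3 or any one of the WT replicates, nor with no expression minimum.

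Among metabolic genes, Hk2 was higher in NPC and Dlat and Sdhd were lower. Hk2, hexokinase 2, which traps glucose in the cell as the entry to glycolysis, had 13.9, 15.1 and 14.5 FPKM in NPC, against 10.2, 10.2 and 10.3 FPKM in WT. The log2 fold change was 0.50 ± 0.05 (SE; edgeR adjusted p = 2.91e-18), or 1.41-fold, and the groups were well apart. Hk2 was the only gene of the glycolysis list in the table.

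Of 6 tested genes for mitochondrial respiration and alpha-keto acid oxidation, 0 rose, 4 fell and 2 did not pass, with a median log2 fold change of -0.10, against 31.1% of all tested genes lower and a median of -0.04. Dlat, the acetyltransferase subunit of pyruvate dehydrogenase, had 14.1, 13.2 and 13.6 FPKM in NPC, against 17.0, 16.4 and 16.5 FPKM in WT. Its groups did not overlap, and the log2 fold change was -0.29 ± 0.05 (SE; edgeR adjusted p = 8.90e-08). Sdhd, a membrane anchor of respiratory complex II, had 103, 98.5 and 104 FPKM in NPC, against 112, 117 and 111 FPKM in WT, and a log2 fold change of -0.16 ± 0.04 (SE; edgeR adjusted p = 0.000671). Each NPC library lay below each WT library here too. Smaller falls were found for Ndufa9 of complex I (-0.11, edgeR adjusted p = 0.048) and Atp5pb of the ATP synthase stalk (-0.10, edgeR adjusted p = 0.0307). Both of these calls were lost with TMM factors, with median of ratios scaling, with limma, and without NPC replicate 2, WT replicate 2 or WT replicate 3, and that of Ndufa9 also without WT replicate 1 and at either other expression minimum. Cox5a of complex IV had a log2 fold change of -0.04 (95% confidence interval -0.13 to 0.06) and overlapping groups.

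Haao and Narf, which were placed together on the list of small-molecule metabolism, changed in opposite directions. Haao, the dioxygenase of the kynurenine route from tryptophan to NAD, had 3.85, 4.68 and 4.64 FPKM in NPC, against 2.34, 2.25 and 2.38 FPKM in WT. Its NPC libraries all stood above its WT libraries, by 0.92 ± 0.08 on the log2 scale (SE; edgeR adjusted p = 2.92e-21). Narf, whose product binds prenylated prelamin A, had 11.0, 10.3 and 10.6 FPKM in NPC, against 14.1, 14.1 and 13.4 FPKM in WT. The highest NPC library of Narf lay below the lowest WT library, with a log2 fold change of -0.38 ± 0.05 (SE; edgeR adjusted p = 6.56e-11). Gmpr, a purine interconversion enzyme, did not pass, at -0.11 (95% confidence interval -0.28 to 0.06). The list had 6 tested members, 1 higher, 2 lower and 3 not past the threshold. Narf is 1 of the 2 lower members, although its product is described as a prelamin A recognition factor and not as a metabolic enzyme.

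Single chains of the leukocyte integrins and of the fibronectin receptor moved apart. Of 7 listed integrin genes 3 were in the table, and Itgal, Itgam, Itga4 and Itgb1 were not analysed here. Itgb2 (CD18), the beta chain shared by the leukocyte integrins, had 117, 114 and 115 FPKM in NPC, against 89.0, 93.1 and 91.2 FPKM in WT. Itgb2l, a related beta chain gene, had 46.9, 49.0 and 47.5 FPKM in NPC, against 34.3, 35.5 and 35.5 FPKM in WT. Neither gene had overlapping groups, and the log2 fold changes were 0.34 ± 0.04 for Itgb2 and 0.45 ± 0.04 for Itgb2l (SE; edgeR adjusted p = 1.26e-15 and 2.57e-20). Itga5, the alpha chain of the fibronectin receptor, had 13.1, 12.1 and 12.6 FPKM in NPC, against 15.6, 14.7 and 15.2 FPKM in WT. Its log2 fold change was -0.27 ± 0.05 (SE; edgeR adjusted p = 9.08e-07), again without overlap.

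**Figure D2:**
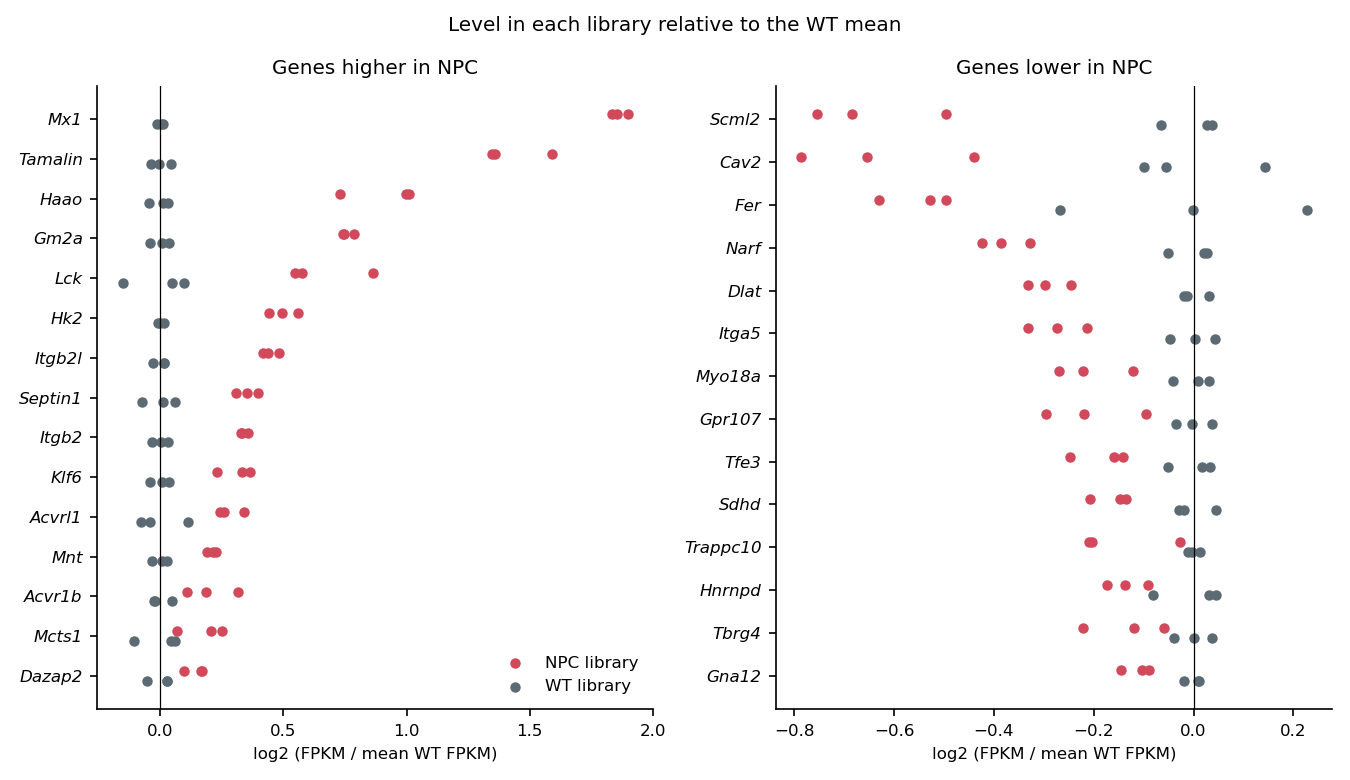
Level of each library as log2 of its FPKM over the mean WT FPKM, for genes the naming rule takes as rises (left) and falls (right), with NPC libraries above WT libraries in each row. Mx1 and Tamalin have all 3 NPC points above 1, while Trappc10, Hnrnpd and Tbrg4 have NPC points close to the WT points.

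Promoters of 2 genes that rose and 2 that fell are shown so that the letters next to the start site can be compared between directions. RefSeq promoters on GRCm38.p6, from 250 bases before to 50 bases after the annotated start, were found for 49 of the 61 genes. They were searched on both strands for the PU.1 core GAGGAA, the STAT element TTCNNNGAA and the E-box CACGTG. PU.1 is a master transcription factor of myeloid cells. Sequences run 5′ to 3′ on the gene's strand, and capitals mark matches.
Gm2a, chr11:55097735-55098034, + strand: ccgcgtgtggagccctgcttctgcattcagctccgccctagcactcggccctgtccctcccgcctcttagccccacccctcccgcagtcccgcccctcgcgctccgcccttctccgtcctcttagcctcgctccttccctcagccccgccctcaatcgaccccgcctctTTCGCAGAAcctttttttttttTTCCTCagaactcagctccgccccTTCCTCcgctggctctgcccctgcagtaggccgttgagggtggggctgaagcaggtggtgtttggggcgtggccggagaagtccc
Itgb2l, chr16:96443565-96443864, - strand: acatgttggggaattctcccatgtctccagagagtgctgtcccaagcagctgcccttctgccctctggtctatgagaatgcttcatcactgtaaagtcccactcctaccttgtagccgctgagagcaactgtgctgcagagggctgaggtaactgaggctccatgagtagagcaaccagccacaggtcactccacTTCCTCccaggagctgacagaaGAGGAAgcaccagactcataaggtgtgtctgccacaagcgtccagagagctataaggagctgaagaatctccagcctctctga
Narf, chr11:121236986-121237285, + strand: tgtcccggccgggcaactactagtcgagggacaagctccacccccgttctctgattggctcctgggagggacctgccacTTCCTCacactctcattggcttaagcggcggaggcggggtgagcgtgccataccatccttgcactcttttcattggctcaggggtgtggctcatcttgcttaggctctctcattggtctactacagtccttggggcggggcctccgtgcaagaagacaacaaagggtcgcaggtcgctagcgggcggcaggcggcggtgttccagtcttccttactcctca
Itga5, chr15:103366742-103367041, - strand: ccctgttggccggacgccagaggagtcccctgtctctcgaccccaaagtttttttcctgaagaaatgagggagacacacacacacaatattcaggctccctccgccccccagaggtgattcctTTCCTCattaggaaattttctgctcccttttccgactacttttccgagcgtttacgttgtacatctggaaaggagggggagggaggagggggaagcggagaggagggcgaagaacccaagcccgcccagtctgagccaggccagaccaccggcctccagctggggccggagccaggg

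The promoters shown were chosen by hand, and each held PU.1 letters. The PU.1 letters stood in promoters of both directions. Counted from the start site, they began at -59 and -35 in Gm2a and at -55 and -33 in Itgb2l, both genes that rose. They began at -171 in Narf and at -127 in Itga5, both genes that fell. Positions in the promoters not shown were not compared, so no contrast in position between the directions is drawn. The other capitals in Gm2a are a STAT element at -81, which overlaps no PU.1 match. PU.1 letters were found for 6 of 14 genes that rose, 6 of 18 that fell and 6 of 17 that did not pass, against 28.3% of 32851 mouse promoters. The E-box was in 5 of 14, 4 of 18 and 3 of 17 of these classes in the same order, against 7.15% of all promoters. The STAT element was in 2 of 14, 1 of 18 and 2 of 17, against 8.30%. In each class a gene counted once if any of its promoters matched, while the percentages are over single promoters of all genes. These shares are therefore not alike in unit or set, and no difference between them was tested.

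Signalling genes were split. Of 8 tested G-protein, kinase and receptor genes, 4 rose, 2 fell and 2 did not pass, with a median log2 fold change of 0.08. Among all tested genes 32.8% rose and 31.1% fell. Lck, a Src-family kinase best known in T cells, had 4.91, 4.82 and 6.00 FPKM in NPC, against 3.40, 2.96 and 3.52 FPKM in WT. All NPC libraries were above all WT libraries, NPC replicate 3 the highest, and the log2 fold change was 0.67 ± 0.09 (SE; edgeR adjusted p = 3.57e-11). Fer, a tyrosine kinase of cell adhesion, had 1.34, 1.37 and 1.25 FPKM in NPC, against 1.61, 2.27 and 1.93 FPKM in WT. Its WT libraries were widely spread but did not reach the NPC libraries, and the log2 fold change was -0.55 ± 0.11 (SE; edgeR adjusted p = 7.11e-06).

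A pair of type I receptor genes of the TGF-beta superfamily were higher: Acvr1b (ALK4, an activin receptor) by 0.21 ± 0.07 and Acvrl1 (ALK1, a BMP receptor of endothelium) by 0.28 ± 0.10 (log2 ± SE; edgeR adjusted p = 0.00429 and 0.00883). Acvrl1 did not pass without NPC replicate 3, WT replicate 1 or WT replicate 3. The G-protein alpha genes went opposite ways. Gnai3 had 64.2, 63.0 and 62.2 FPKM in NPC, against 58.6, 57.0 and 57.5 FPKM in WT. Gna12 had 33.4, 32.4 and 33.6 FPKM in NPC, against 36.0, 35.3 and 36.1 FPKM in WT. The groups overlapped for neither, though the fall of Gna12 (-0.11, edgeR adjusted p = 0.0209) did not pass with TMM factors, with median of ratios scaling, or without any one of the WT replicates.

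Transcription factor genes also went both ways, with 2 of 4 tested higher, 1 lower and 1 not past the threshold. Klf6, a zinc-finger factor, had 54.0, 52.8 and 49.2 FPKM in NPC, against 40.7, 42.2 and 43.0 FPKM in WT. Mnt, a Max-binding repressor that opposes Myc, had 10.6, 10.4 and 10.5 FPKM in NPC, against 9.12, 8.88 and 9.25 FPKM in WT. Groups were separate for both, with log2 fold changes of 0.31 ± 0.04 for Klf6 and 0.21 ± 0.06 for Mnt (SE; edgeR adjusted p = 8.99e-12 and 0.000643). Tfe3, a factor that drives lysosome and autophagy genes, had 4.53, 4.20 and 4.47 FPKM in NPC, against 5.05, 4.82 and 5.11 FPKM in WT. Each NPC library of Tfe3 lay below each WT library, and a link to the lysosomal genes was not tested. Its log2 fold change was -0.18 ± 0.06 (SE; edgeR adjusted p = 0.00366). Zfp385a, a zinc-finger gene, was at -0.06 (95% confidence interval -0.19 to 0.06).

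The Polycomb gene Scml2, on chromosome X, had 0.894, 0.747 and 0.785 FPKM in NPC, against 1.28, 1.29 and 1.20 FPKM in WT. It stayed under 1 FPKM in each NPC library and above that level in each WT library, with a log2 fold change of -0.64 ± 0.12 (SE; edgeR adjusted p = 7.72e-07). It met the expression minimum through WT, the group in which it is high. Its relative Scmh1 did not pass, at -0.08 (95% confidence interval -0.19 to 0.03).

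Of 5 tested genes of the cytoskeleton, junctions and caveolae, 1 rose, 3 fell and 1 did not pass. Among all tested genes 32.8% rose and 31.1% fell. Septin1, a filament-forming GTPase, had 27.3, 28.1 and 29.0 FPKM in NPC, against 22.2, 22.9 and 20.9 FPKM in WT. This was a clear separation, at 0.35 ± 0.05 on the log2 scale (SE; edgeR adjusted p = 2.52e-10). Cav2, caveolin 2 of membrane pits, had 1.21, 1.04 and 0.954 FPKM in NPC, against 1.82, 1.53 and 1.58 FPKM in WT, a log2 fold change of -0.61 ± 0.14 (SE; edgeR adjusted p = 7.64e-05). Myo18a, an unconventional myosin, fell by 0.20 on the log2 scale (edgeR adjusted p = 1.90e-05). Krit1, a cerebral cavernous malformation gene of junctions, was lower by test (-0.16, edgeR adjusted p = 0.00691) although NPC replicate 1 lay within the WT range. That call was lost without NPC replicate 2, NPC replicate 3, WT replicate 1 or WT replicate 3. Its partner Ccm2 did not pass, at -0.09 (95% confidence interval -0.20 to 0.01), but did without NPC replicate 1 (edgeR adjusted p = 0.045).

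Tamalin, a scaffold that ties receptors to the trafficking machinery, had 3.40, 4.03 and 3.44 FPKM in NPC, against 1.30, 1.38 and 1.33 FPKM in WT. It rose by 1.43 ± 0.14 on the log2 scale (SE; edgeR adjusted p = 4.09e-19; 95% confidence interval 1.16 to 1.71), with the lowest NPC library 147% above the highest WT library. Tamalin was the only one of 5 tested genes for membrane traffic and scaffolds that rose. Sema4f, also on this list but under the expression minimum, was higher with no minimum and is described below. Gpr107, a Golgi membrane protein, fell by 0.20 (edgeR adjusted p = 0.00213) and Trappc10, a tethering complex subunit, by 0.14 on the log2 scale (edgeR adjusted p = 0.00356). Trappc10 had 15.6, 13.8 and 13.8 FPKM in NPC, against 15.8, 16.1 and 15.9 FPKM in WT. Its NPC replicate 1 thus lay close to WT, and the call was lost without NPC replicate 2 and with limma at a pseudocount of 0.1. Tom1l2 and Galnt1 did not pass, at -0.04 and -0.08, though Galnt1 passed as lower without NPC replicate 1 (edgeR adjusted p = 0.024).

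Replication and RNA genes showed small changes. Of 8 tested genes for RNA processing and translation, 2 rose, 2 fell and 4 did not pass, with a median log2 fold change of -0.07. Dazap2, a small adaptor protein gene, had 134, 128 and 134 FPKM in NPC, against 115, 122 and 122 FPKM in WT (log2 fold change 0.14, edgeR adjusted p = 0.00035). Mcts1, a factor in translation re-initiation, rose by 0.18 (edgeR adjusted p = 0.0138). The rise of Mcts1 was lost without NPC replicate 2, NPC replicate 3 or WT replicate 2. Hnrnpd, which binds AU-rich RNA elements, and Tbrg4, of mitochondrial RNA, each fell by 0.13 on the log2 scale (edgeR adjusted p = 0.00099 and 0.00691), and both calls were lost without NPC replicate 2. That of Tbrg4 was lost without WT replicate 2 and with limma at a pseudocount of 0.1 as well.

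In the replication and cell cycle list 1 of 3 tested genes rose, 1 fell and 1 did not pass. Cdc45, of the replicative helicase, had 25.1, 24.5 and 26.7 FPKM in NPC, against 22.3, 24.7 and 23.9 FPKM in WT. Its groups overlapped and its rise of 0.11 (edgeR adjusted p = 0.0441) did not pass with limma, at either other expression minimum, or without NPC replicate 2, NPC replicate 3, WT replicate 1 or WT replicate 3. Brat1, a gene of the DNA damage response, fell by 0.16 (edgeR adjusted p = 0.0349), with overlapping groups, and its call was lost with either other scaling, with limma at a pseudocount of 0.1 and without NPC replicate 2, NPC replicate 3, WT replicate 1 or WT replicate 2. Ccnd2, cyclin D2, was at 0.03 (95% confidence interval -0.05 to 0.12).

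**Figure D3:**
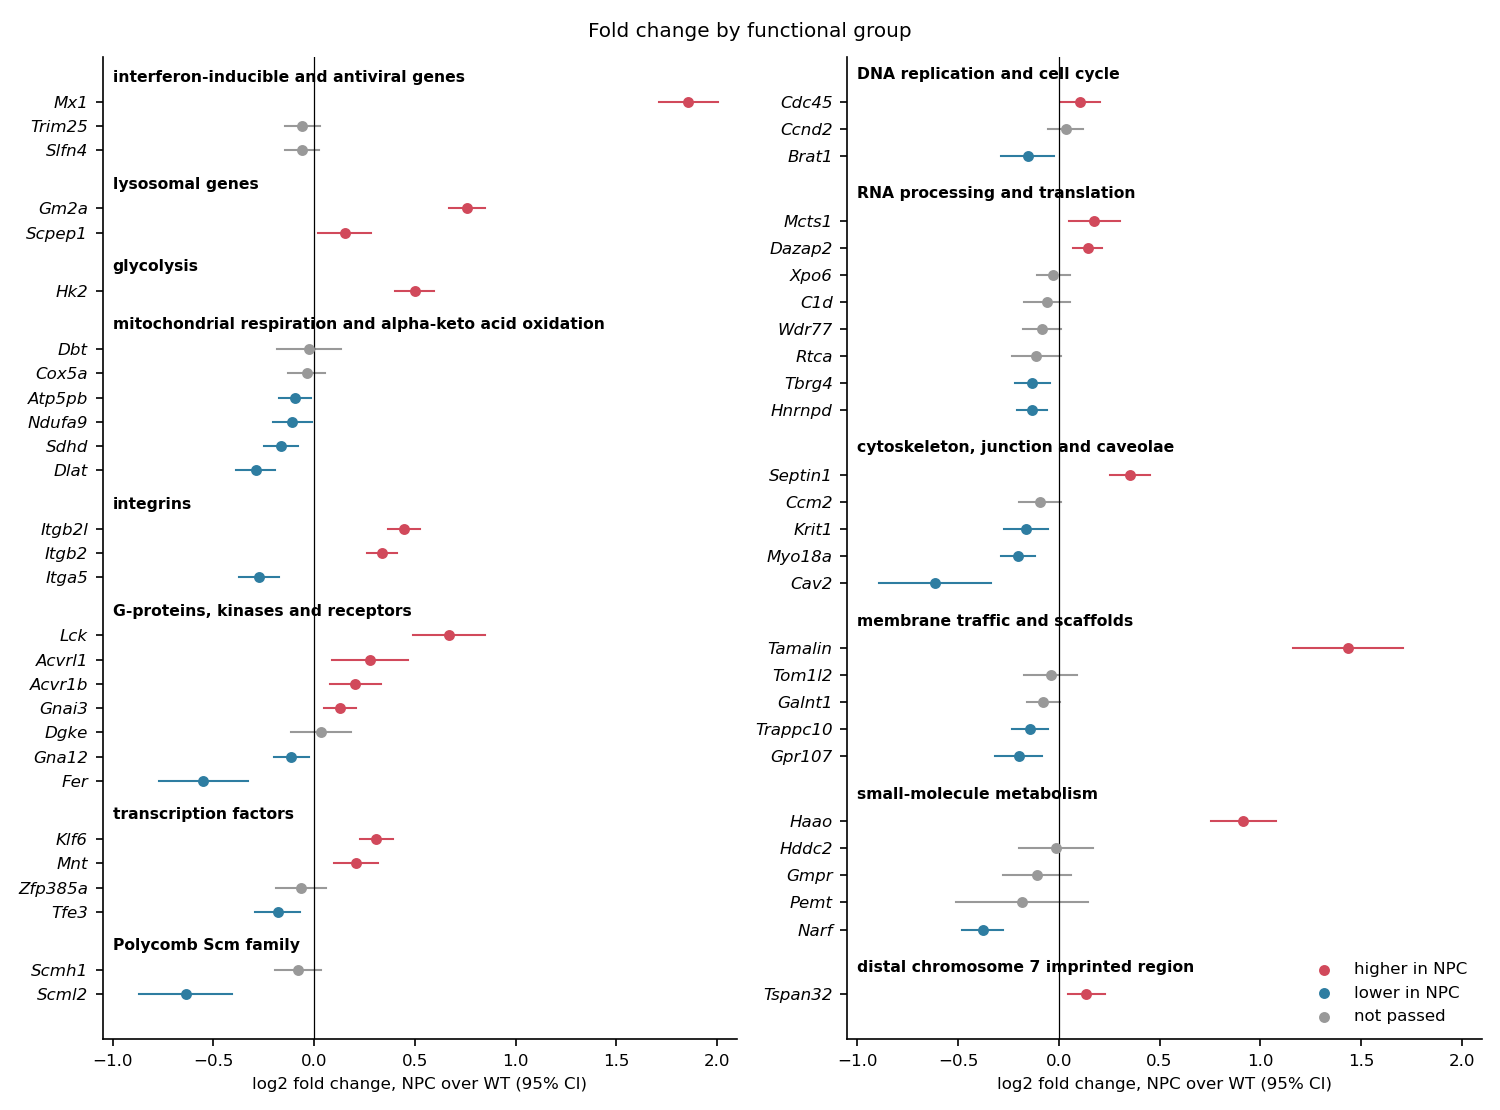
Log2 fold change of NPC over WT with its 95% confidence interval for tested genes of each functional group, coloured by the edgeR call. Dlat, at -0.29, is the lowest of the group for mitochondrial respiration and alpha-keto acid oxidation, and most intervals of the other groups lie within 0.5 of 0.

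Marker genes of single blood cell types were few in the table. Itgb2l from the neutrophil list and Lck from the T and NK list are described above. Clec10a, from the monocyte and dendritic lists, had 1.22, 1.17 and 1.65 FPKM in NPC, against 1.22, 0.865 and 0.886 FPKM in WT. It met the expression minimum through NPC, the group in which it is high. It passed as higher by 0.45 ± 0.16 on the log2 scale (SE; edgeR adjusted p = 0.0139), but NPC replicate 2 lay below WT replicate 1. The call was lost without NPC replicate 3, WT replicate 2 or WT replicate 3. Each of these lists had 1 tested member. The other markers in the table lay under the expression minimum and went both ways. Alox12, the platelet 12-lipoxygenase of the megakaryocyte list, had 0.284, 0.276 and 0.227 FPKM in NPC, against 0.469, 0.394 and 0.467 FPKM in WT, and passed as lower with no minimum (edgeR adjusted p = 0.00114). Adora3, an adenosine receptor of the mast cell list, had 0.421, 0.329 and 0.423 FPKM in NPC, against 0.237, 0.161 and 0.149 FPKM in WT, and passed as higher with no minimum (edgeR adjusted p = 4.46e-05). Fap, of the stroma list, did not pass there (edgeR adjusted p = 0.583). The remaining listed markers of these lineages were not analysed here. The part of mature cells in the results was not tested.

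Of the 38 genes under the expression minimum, 12 passed when no minimum was set, 6 higher and 6 lower in NPC, in a fit where 49% of 98 genes passed. Sema4f, a semaphorin, narrowly missed the minimum, with 0.996, 1.02 and 1.19 FPKM in NPC, against 0.448, 0.552 and 0.597 FPKM in WT. Its groups did not overlap, and the log2 fold change was 1.00 (edgeR adjusted p = 1.22e-11). Cdh1, E-cadherin, had 0.608, 0.627 and 0.776 FPKM in NPC, against 0.418, 0.538 and 0.468 FPKM in WT, and passed as higher (edgeR adjusted p = 0.00594). Axin2, a target and inhibitor of Wnt signalling, had 0.193, 0.188 and 0.143 FPKM in NPC, against 0.214, 0.339 and 0.415 FPKM in WT, and passed as lower (edgeR adjusted p = 0.000133). Pparg, a nuclear receptor of lipid metabolism, had 0.284, 0.381 and 0.424 FPKM in NPC, against 0.665, 0.547 and 0.574 FPKM in WT, and was also lower (edgeR adjusted p = 0.00267). These 4 genes separated the groups in every library.

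Of 8 listed genes of the distal chromosome 7 imprinted region, 3 were in the table and were higher in NPC, 1 of them above the expression minimum. Over all genes, 32.8% of those tested were higher, and 24.5% with no minimum. H19, an imprinted noncoding RNA, had 31, 38 and 44 estimated counts in NPC, against 3, 9 and 13 in WT, where 1 fragment is worth about 4 counts. Slc22a18, an imprinted transporter gene, had 1.02, 0.677 and 0.631 FPKM in NPC, against 0.513, 0.392 and 0.463 FPKM in WT. Both passed as higher with no minimum (edgeR adjusted p = 0.00539 for H19 and 0.00441 for Slc22a18). Tspan32, a tetraspanin of blood cells and the tested member of this list, had 17.7, 15.9 and 18.1 FPKM in NPC, against 15.5, 15.9 and 15.7 FPKM in WT. Its groups lay only 0.301% apart. Its rise of 0.14 (edgeR adjusted p = 0.00697) did not pass without NPC replicate 3 or with limma at a pseudocount of 0.1. The other genes that passed with no minimum, beside Adora3 and Alox12 above, were Cttnbp2, which was higher, and Pih1d2, Drp2 and Egfl6, which were lower. Egfl6 had 5, 4 and 0 estimated counts in NPC, against 35, 30 and 15 in WT.

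Neighbouring genes of the table were compared because its identifiers run in blocks of adjacent genes. Of 22 neighbouring pairs at most 100000 bases apart, 10 had both genes tested and 3 had both changed, all 3 in the same direction. Over all tested genes 63.9% changed. Acvrl1, Acvr1b and Tamalin follow each other on the + strand of chromosome 15, with gaps of 28731 and 10504 bases, and all were higher in NPC. These chromosome 15 pairs share Acvr1b. Brat1 and Gna12 on chromosome 5, 39029 bases apart, were both lower. The calls of Acvrl1, Brat1 and Gna12 did not hold under all alternatives. On chromosome 9, Sdhd and Dlat flank Pih1d2, with gaps of 13509 and 9633 bases. Sdhd and Dlat were lower, and Pih1d2 was lower with no expression minimum (0.234, 0.223 and 0.204 FPKM in NPC, against 0.370, 0.394 and 0.540 FPKM in WT). Atp5pb overlaps Wdr77 on the opposite strand by 730 bases. Whether the counting used strand is not given in the labels, so reads of this overlap may not be assigned to one gene. Chance agreement of neighbours was not tested.

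In the coordinates of the table, on GRCm39, Tamalin (ENSMUSG00000000531) lies on chromosome 15 from 101122069 to 101130637 and Haao (ENSMUSG00000000673) on chromosome 17 from 84138585 to 84154241. Lck (ENSMUSG00000000409) lies on chromosome 4 from 129442137 to 129467434, and Itgb2 (ENSMUSG00000000290) on chromosome 10 from 77366086 to 77401520. Dlat (ENSMUSG00000000168) lies on chromosome 9 from 50545933 to 50571080, and Scml2 (ENSMUSG00000000037) on chromosome X from 159865521 to 160041209.

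The third group of the series, NC, is read as CMML without the knockout, and its levels are given beside NPC and WT for genes with large changes. Mx1 averaged 9.46 ± 0.222 FPKM in NPC, 7.93 ± 0.898 FPKM in NC and 2.60 ± 0.0213 FPKM in WT (SD, n = 3 each). Tamalin averaged 3.62 ± 0.351 FPKM in NPC, 3.18 ± 0.599 FPKM in NC and 1.34 ± 0.0386 FPKM in WT (SD, n = 3 each). Haao averaged 4.39 ± 0.467 FPKM in NPC, 4.00 ± 0.276 FPKM in NC and 2.33 ± 0.0630 FPKM in WT (SD, n = 3 each). For these 3 genes, which rose, NC lay nearer to NPC than to WT. Of the falls, Cav2 averaged 1.07 ± 0.131 FPKM in NPC (SD, n = 3), had 1.56, 1.67 and 1.28 FPKM in the NC libraries, and averaged 1.64 ± 0.151 FPKM in WT (SD, n = 3). Scml2 averaged 0.809 ± 0.0764 FPKM in NPC, 1.04 ± 0.0553 FPKM in NC and 1.26 ± 0.0491 FPKM in WT (SD, n = 3 each). The NC mean of Cav2 lay nearer to WT and that of Scml2 about midway, and no difference between NPC and NC was tested here.

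**Figure D4:**
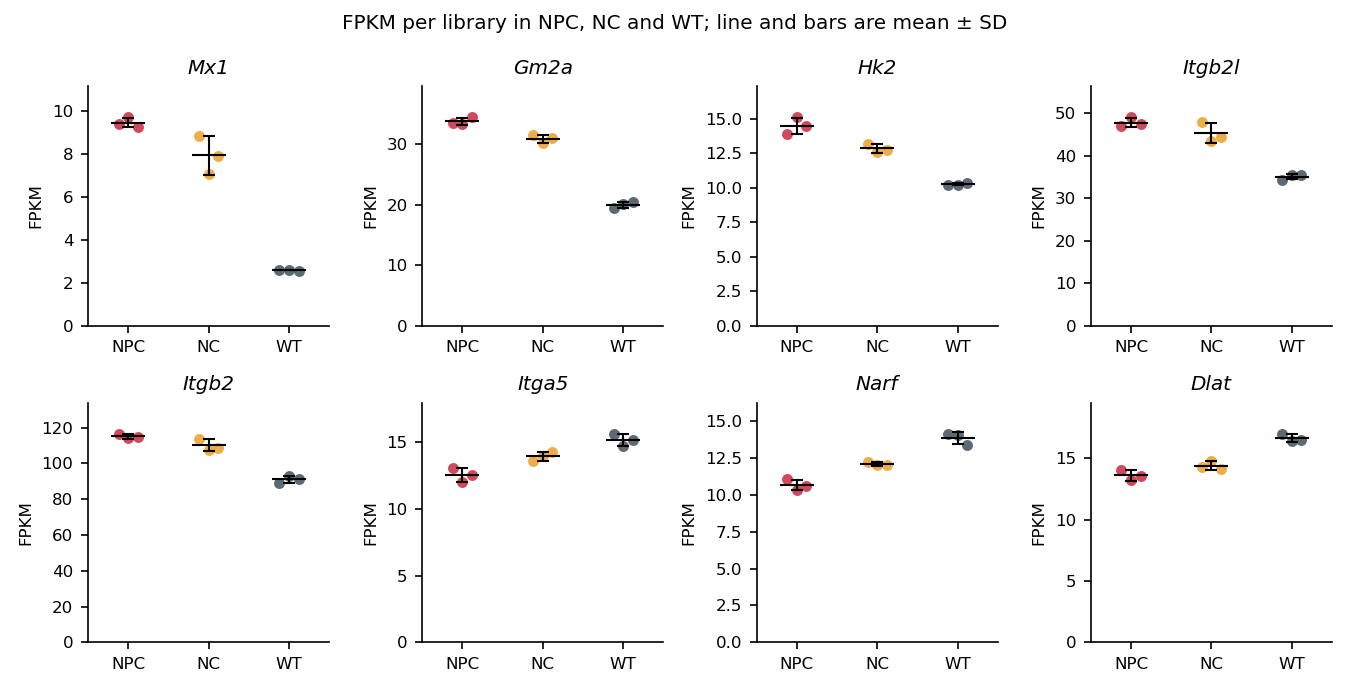
FPKM in each library of NPC, NC and WT (points), with the mean and SD of the 3 libraries (line and bars), for 8 genes on axes that start at 0. Mx1 is near 9.46 FPKM in NPC and 2.60 FPKM in WT, while Itga5, Narf and Dlat are lower in NPC than in WT.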

How the data were processed

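RNA of c-Kit+ marrow cells was sequenced as strand-marked poly(A) libraries, per the labels' protocols. The submitters' processing notes name cutadapt 1.9, HISAT2 2.2.1, StringTie 2.1.6, DESeq2, edgeR and GRCm39, with no role or order. The sources used here give neither the annotation release nor the strand setting. FPKM values were deposited by the authors beside estimated counts, which are whole numbers and not normalized. Of 891 count values 14 equal 4 and 0 equal 1, so 1 fragment is taken as about 4 counts.

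Relative depth came from the ratio of count to FPKM in 61 genes of 200 counts or more throughout (100% of values within 1% of the fit), and its absolute scale from 6 genes with 1 transcript. The table's genes held 0.504% to 0.531% of that depth, so depth was not taken from their sum. NPC and WT libraries were grouped by title and fitted with edgeR 4.0.16 (R 4.3.3) quasi-likelihood tests on the estimated counts, with the recovered depth as library size and no block. The fit used these 6 libraries and the 61 genes that reached an FPKM of 1 in 3 or more of them. P-values are two-sided and adjusted by Benjamini-Hochberg over the genes tested, and intervals are at 95%. The test was tried on simulated data.

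The members, gene lists and tests were chosen with earlier results of these data known. Genes named are those past the threshold without overlap (up to 15 rises and 15 falls by size), up to 4 tested members of each of 15 lists, and genes that pass with no minimum. Clec10a, Fap, Wdr77 and the genes of the neighbour comparison were added after their values were seen. Some genes the rule takes are left out of the text, though counts include them. The list of Wnt and cadherin genes had 5 members in the table, all under the minimum. Alternatives used DESeq2 1.42.0, limma 3.58.1 on log2(FPKM + 1) and log2(FPKM + 0.1), TMM and median of ratios scaling, other minimums, all 9 libraries, counts divided by 4, robust moderation, a replicate block and leaving out each library.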

Additional observations from a re-analysis of the deposited data

How the results depend on the processing

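Of 39 named genes that passed, counting the marker Clec10a, 25 still passed under each of the 17 alternatives that tested them. The other 14 failed under at least 1. Genes too low for the minimum of 5 FPKM, among them Tamalin, Haao, Lck, Scml2 and Cav2, were not tested in that alternative. In addition, 3 of 11 named genes that had not passed passed without NPC replicate 1, and no named gene changed direction. The total of 39 changed genes (20 higher, 19 lower) was 35 (20 and 15) with TMM factors or median of ratios scaling, 39 with DESeq2, 37 and 32 with limma at pseudocounts of 1 and 0.1, 39 with all 9 libraries, and 48 of 98 with no expression minimum. With a minimum of 5 FPKM, 25 of the 44 genes then tested changed, 14 higher and 11 lower, where fewer genes were tested. Leaving out 1 library gave 30 to 43 changed genes, 14 to 19 higher and 12 to 24 lower, with 12 lower without NPC replicate 2 and 24 lower without NPC replicate 1, and the cause was not tested. NPC and WT libraries share replicate numbers, but deviations of same-numbered libraries correlated at -0.10, 0.13 and -0.10, so the numbers are not taken to pair them. With the replicate block 32 genes changed, 17 higher and 15 lower, and Atp5pb, Brat1, Cdc45, Clec10a, Hnrnpd, Ndufa9 and Scpep1 did not pass. Depth limits the low genes, where 1 fragment is worth about 4 counts and Egfl6, Cttnbp2 and H19 rest on few fragments.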
